A study of Papio anubis with 8 samples.

Results

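The 8 genes described here encode 2 neurotrophins, BDNF and NTF3, and 6 proteins that bind neurotrophins or belong to the same receptor family: NTRK2, NTRK3, NGFR, SORT1, SORCS1 and SORCS3. They were taken by gene symbol from a table of 37053 genes, and each symbol had 1 row. All 8 passed the filter on low counts, as did 16874 genes in all. RNA came from fetal hippocampus of the olive baboon (Papio anubis) near the end of gestation, at 0.9 of term. The study concerns mothers that differed in adiposity and in circulating leptin. No label assigns any of the 8 libraries to a kind of mother, and none gives strain, fetal sex, an agent or whether each library is a separate fetus, so every library carries the same description (hippocampus, total RNA, strand-specific kit). Libraries are therefore called by the first part of their title, and no groups were formed. The full title of AMB3 is AMB3_L1000, whereas the others have the form AMB4_S4. The titles do not say what these endings mean. The deposited normalized values of the 8 genes were centred on AMB3, AMB8 and AMB10, for a reason the labels do not give.

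Neurotrophins are secreted growth factors that support the survival, wiring and synaptic plasticity of neurons. They are made as precursors, and cleavage yields the mature factor. Mature BDNF acts mainly through the receptor tyrosine kinase TrkB, encoded by NTRK2, and NTF3 mainly through TrkC, encoded by NTRK3. The p75 receptor, encoded by NGFR, binds all mature neurotrophins and, with sortilin (SORT1), their precursors. SORCS1 and SORCS3 are further members of the sortilin family, receptors that sort proteins in neurons. In the hippocampus BDNF is known as a factor that is transcribed in response to neuronal activity and is needed for lasting synaptic potentiation.

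Total counts ran from 40404878 to 71648654 per library. Levels are in CPM (counts per 1000000, with library sizes adjusted by the trimmed mean of M-values), with exact 95% Poisson intervals that cover counting error only. CPM values are not corrected for transcript length, so they rank libraries and not genes. The range of a gene is its highest minus its lowest log2 CPM over the 8 libraries. In tissue RNA of this kind, fewer cells of a type and less RNA per cell cannot be told apart.

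AMB8 and AMB10, and to a lesser degree AMB3, stood apart from the other libraries in markers of brain region. The summed level of 6 cortical layer and subicular markers was lowest in AMB8 at 142 CPM, followed by AMB10 at 207 and AMB3 at 330, and the 5 other libraries had 585 to 1008 CPM. Of these 6 markers, 5 had AMB8 and AMB10 as their 2 lowest libraries, and CUX2 stood at 12.1 CPM in AMB8 and 277 in AMB7. All 5 dentate granule cell markers had the same 2 libraries highest, with a summed level of 347 CPM in AMB8, 339 in AMB10 and 96.2 to 158 elsewhere. The summed level of 6 markers of pyramidal cells of the hippocampal fields was likewise highest there, at 715 CPM for AMB10, 678 for AMB8 and 418 for AMB3 and at most 257 CPM in the rest. Of these 6, FIBCD1, GRIK4 and RGS14 had AMB8 and AMB10 as their 2 highest libraries, whereas AMIGO2 had them as its 2 lowest, PCP4 was lowest in AMB8 and WFS1 highest in AMB3. Every dentate and field marker listed was counted in each library, at very uneven levels. PROX1 was at 14.4 CPM or more. FIBCD1 ran from 9.01 CPM in AMB5 to 400 in AMB8, and RGS14 from 4.99 CPM in AMB7 to 167 in AMB10. The share of hippocampal tissue in each library was not tested. Over all tested genes, AMB8 and AMB10 were the 2 lowest libraries in 11.6% and the 2 highest in 11.9%.

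As a family the 8 genes spanned very different ranges. Of the 8, 6 had a log2 range of at least 1 (BDNF, NTF3, NGFR, SORT1, SORCS1 and SORCS3), where 36.1% of tested genes had such a range. NTF3 and SORCS1 reached a range of at least 2, as did 9% of tested genes. The median range of the 8 genes was 1.71, against 0.77 over all tested genes. The genes were chosen with earlier results of these data known, so these counts describe them and test nothing. Without AMB7 the count of genes with a range of at least 1 was 5 of 8, beside 32.6% of tested genes. Without AMB8 and AMB10 it was 4 of 8, with 26.5% of tested genes past the same threshold, and without AMB3, AMB8 and AMB10 it was 3 of 8, with 19.8%.

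**Figure D1:**
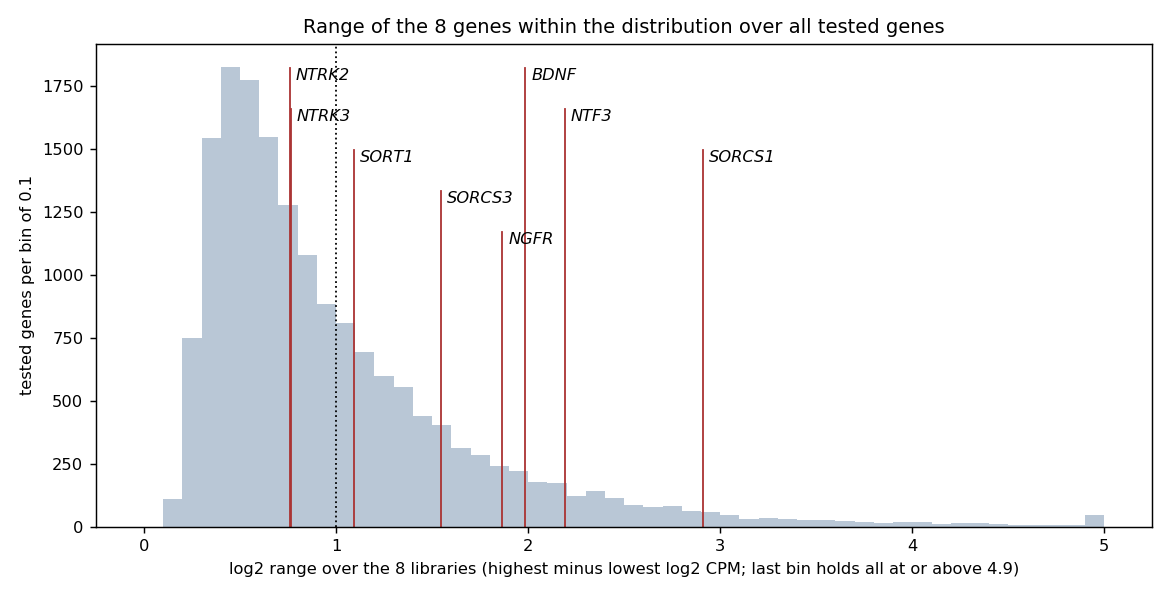
Histogram of the log2 range over the 8 libraries for the 16874 tested genes (x axis, log2 units; y axis, genes per bin), with the 8 neurotrophin genes as red lines and a dotted line at a range of 1. NTRK2 and NTRK3 lie near the median of 0.77, and SORCS1 lies farthest right at 2.91.

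Among the ligands, BDNF (gene 101007866, chromosome 12, 86976258 to 87047002, minus strand, Panubis1.0) varied 3.97-fold. It was lowest in AMB7, at 14.6 CPM (95% interval 13.7 to 15.5, 1043 counts), with a median of 41.5 CPM. AMB9 and AMB4 followed at 30.4 and 32.8 CPM, and their intervals overlapped. AMB6 stood at 37.9 CPM, AMB10 at 45.0 and AMB5 at 49.2. The highest libraries were AMB3 at 56.6 and AMB8 at 58.0 CPM (56.2 to 59.9, 3879 counts), whose intervals also overlapped. On the log2 scale, though not in CPM, AMB7 stood below the 7 other libraries by more than the whole range among them. The log2 range of 1.99 was above that of 90.9% of tested genes, and it fell to 0.93 without AMB7. An uncharacterised transcript on the opposite strand, LOC103877592, overlaps BDNF and had at most 10 counts in a library, 0.436% of the BDNF count or less.

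NTF3, neurotrophin 3 (gene 101010880, chromosome 9, 5474283 to 5537900, plus strand), was a low-count gene with a median of 5.49 CPM. Its lowest libraries were AMB7 at 2.17 CPM (1.84 to 2.54, 155 counts) and AMB4 at 2.24 CPM (1.89 to 2.64, 143 counts). AMB10 and AMB9 followed at 3.69 and 4.31 CPM, then AMB5 at 6.66. AMB8, AMB6 and AMB3 were highest, at 8.55, 8.68 and 10.03 CPM (9.08 to 11.1 in AMB3, 407 counts). The range was 2.19, or 4.62-fold, and stayed at or above 1.98 with any 1 library left out. Both ligands were lowest in AMB7, but NTF3 separated AMB4 and AMB6, at 2.24 and 8.68 CPM, where BDNF stood at 32.8 and 37.9 CPM. The count of NTF3 relative to BDNF, which no scaling of the library changes, was lowest in AMB4 at 0.0683 (0.0572 to 0.0809) and highest in AMB6 at 0.229 (0.207 to 0.253).

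**Figure D2:**
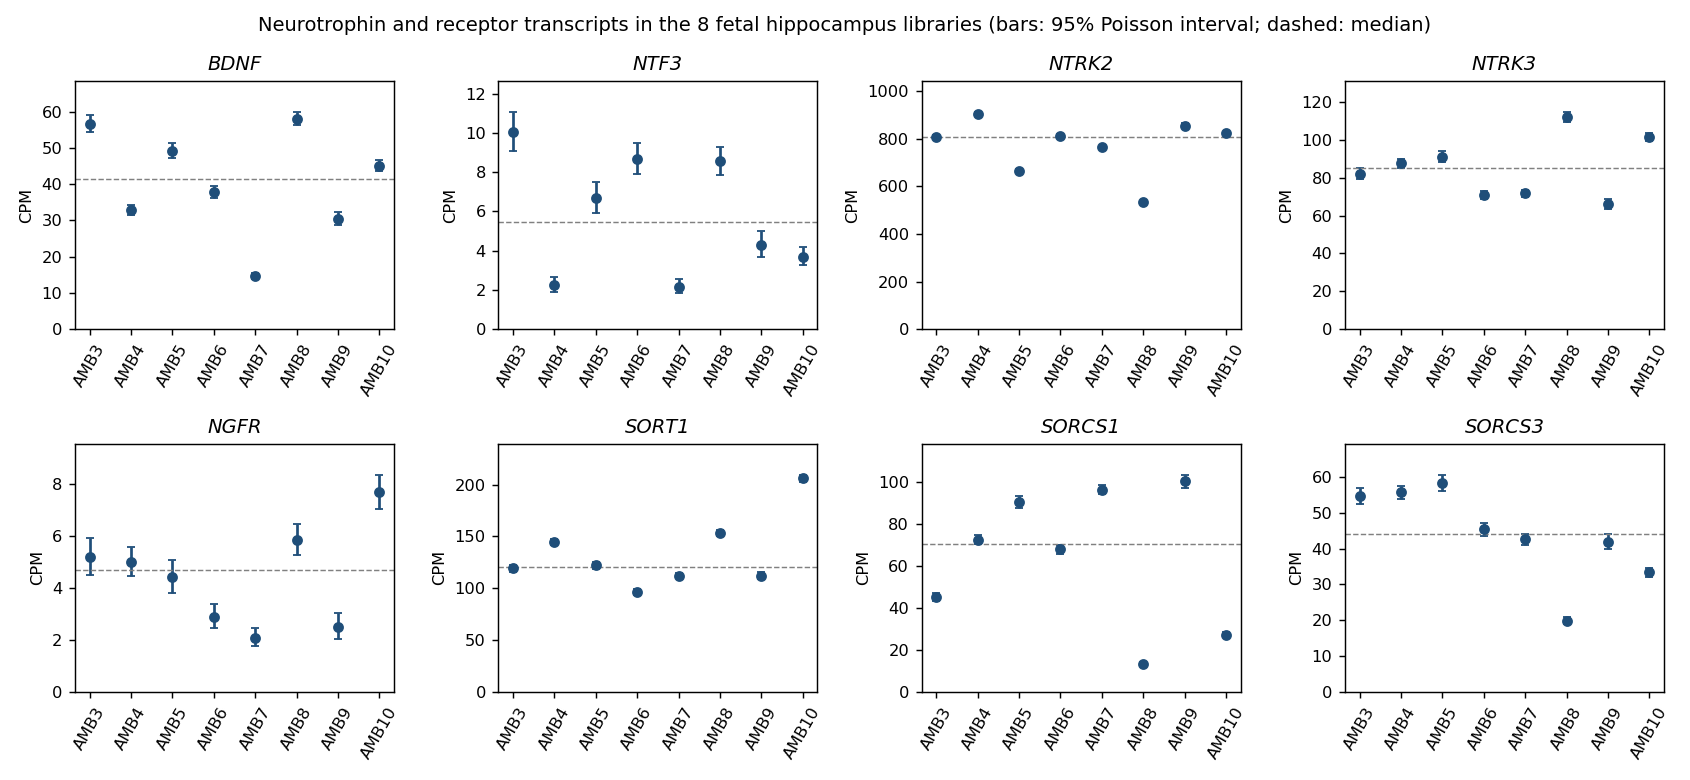
CPM of each of the 8 genes (y axis, from 0) in each library (x axis), with 95% Poisson intervals as bars and the median over libraries as a dashed line. BDNF was at 14.6 CPM in AMB7 and at 30.4 CPM or above elsewhere, whereas SORCS1 and SORCS3 were lowest in AMB8.

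The Trk receptors varied least. NTRK2 (gene 101009383, chromosome 13, 12511914 to 12878732, minus strand) was counted most, between 28817 and 58830 times per library. It stood at 535 CPM in AMB8 (529 to 540), 664 in AMB5 and 763 in AMB7. AMB3, AMB6 and AMB10 lay together at 807, 811 and 822 CPM, each interval overlapping the next, and AMB9 and AMB4 were highest at 855 and 904 CPM. The range of 0.76 was above that of 49.3% of tested genes and fell to 0.44 without AMB8. RefSeq lists 12 transcript models for this gene. Full-length TrkB and the truncated form that lacks the kinase, which astrocytes make, both count towards it, and the table does not separate them. The 7 astrocyte markers, all tested, had a summed level of 2882 CPM in AMB7, their lowest library, 4734 in AMB8 and 6322 in AMB10, their highest. The part of astrocytes in the NTRK2 level was not tested.

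NTRK3 (gene 101013710, chromosome 7, 100772762 to 101157797, plus strand) had a range of 0.76 as well, and its order of libraries was different. It was lowest in AMB9 at 65.9 CPM (63.4 to 68.5), with AMB6 and AMB7 close by at 70.9 and 71.7. AMB3 stood at 82.1 CPM, AMB4 at 87.6 and AMB5 at 91.0, the last 2 with overlapping intervals. AMB10 at 101 CPM and AMB8 at 112 CPM (110 to 115) were highest. AMB8 was thus the lowest library for the BDNF receptor and the highest for the NTF3 receptor. Without AMB8 and AMB10 the ranges were 0.44 for NTRK2 and 0.46 for NTRK3. The count of BDNF relative to NTRK2, its main receptor, differed 5.67-fold between libraries, from 0.0191 in AMB7 (0.0180 to 0.0204) to 0.108 in AMB8 (0.105 to 0.112).

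NGFR, the p75 receptor (gene 101026165, chromosome 17, 43257512 to 43278094, minus strand), was scarce, with 99 to 551 counts per library. It was lowest in AMB7 at 2.09 CPM (1.77 to 2.45), AMB9 at 2.49 and AMB6 at 2.90, and these 3 overlapped as neighbours. AMB5 stood at 4.43 CPM, AMB4 at 5.01, AMB3 at 5.20 and AMB8 at 5.86, again with each interval overlapping the next. AMB10 was highest at 7.70 CPM (7.07 to 8.37), above the interval of AMB8. The range was 1.87, or 3.69-fold, and 1.30 without AMB8 and AMB10. BDNF, NTF3 and NGFR, 3 of the 8 genes, shared AMB7 as their lowest library, which is the lowest library of 15.1% of tested genes. NTRK2, SORCS1 and SORCS3 shared AMB8, the lowest of 12.3%.

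Markers of some glial types were lowest in AMB7 and those of others were not. All 7 oligodendrocyte precursor markers were lowest there, with a summed level of 204 CPM against 270 to 614 elsewhere, and so were 6 of 7 astrocyte markers and 3 of 5 radial glia markers. None of 8 myelinating oligodendrocyte markers and none of 7 microglia markers was lowest in AMB7, where these lists summed to 1358 and 135 CPM, against 772 to 4846 and 80.6 to 167 CPM over all libraries. Of 5 endothelial markers 3 were lowest in AMB7, with a summed level of 135 CPM against 138 to 197 elsewhere. The 7 meningeal and fibroblast markers summed to 787 CPM in AMB7, their highest library, against 187 to 639 elsewhere. The part of these cells in the levels of BDNF, NTF3 and NGFR was not tested. The basal forebrain cholinergic neuron, a cell type known for NGFR, was also looked for: of its 6 markers none passed the filter, 5 had no library above 1 CPM, and 5 were at 0 in at least 1 library. Their summed level lay between 0.314 CPM in AMB8 and 3.55 in AMB6. Of the Schwann cell markers, 3 of 4 had a row, and their sum (40.5 to 81.4 CPM) was mostly SOX10, which oligodendrocyte precursors share.

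The sortilin family held both the widest range and opposite orders of libraries. SORT1 (gene 101006123, chromosome 1, 107715429 to 107803033, minus strand) ran from 96.4 CPM in AMB6 (93.8 to 99.1) to 206 CPM in AMB10 (203 to 209), with a median of 121 CPM. AMB8 at 154 CPM and AMB4 at 145 were next to the highest, and the 4 remaining libraries lay between 112 and 122 CPM. The range of 1.10 fell to 0.88 without AMB6, to 0.67 without AMB10 and to 0.58 without AMB8 and AMB10. The summed level of 8 myelinating oligodendrocyte markers had its 3 highest values in the same libraries, at 4846 CPM in AMB10, 4023 in AMB4 and 2742 in AMB8, against 772 to 1869 CPM elsewhere. All 8 of these markers had a range of at least 2, beside 9% of all tested genes. Their part in the SORT1 level was not tested.

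SORCS1 (gene 101013968, chromosome 11, 26224486 to 26818841, plus strand) differed most of the 8 genes, 7.53-fold. AMB8 had 13.3 CPM (12.5 to 14.2, 892 counts), AMB10 had 27.2 and AMB3 had 45.3. AMB6 was at 68.1 CPM, AMB4 at 72.7 and AMB5 at 90.4. AMB7 at 96.6 CPM and AMB9 at 100.5 (97.4 to 104) were highest, with overlapping intervals, and no other neighbours in this order overlapped. The 3 lowest libraries were those with the lowest summed cortical layer and subicular markers, in the same order. The range of 2.91 was above that of 97.2% of tested genes. It fell to 1.88 without AMB8, to 1.15 without AMB8 and AMB10, and to 0.56 without AMB3 as well.

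SORCS3 (gene 101012875, chromosome 11, 28142737 to 28753952, minus strand) lies on the same chromosome and in mice is a protein of the postsynaptic density. It shared AMB8 and AMB10 as its 2 lowest libraries, at 19.9 CPM (18.8 to 21.0) and 33.4 CPM. AMB9, AMB7 and AMB6 followed at 41.9, 42.6 and 45.4 CPM, each overlapping the next. AMB3 at 54.7, AMB4 at 55.7 and AMB5 at 58.3 CPM (56.1 to 60.6) were highest and likewise overlapped. AMB3 was thus among the lowest libraries for SORCS1 and among the highest for SORCS3. The range of 1.55 fell to 0.80 without AMB8 and to 0.48 without AMB8 and AMB10. SORCS1 and SORCS3 were 2 of the 8 genes with AMB8 and AMB10 lowest, and NTRK3, NGFR and SORT1 were 3 with the same 2 libraries highest, beside the shares of 11.6% and 11.9% of tested genes. The part of the cortical, dentate and hippocampal field cells named above in these levels was not tested.

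Ratios of counts within a library put the sortilin relatives side by side without any scaling. SORCS1 over SORT1 differed 10.3-fold, from 0.0868 in AMB8 (0.0810 to 0.0930) and 0.132 in AMB10 to 0.897 in AMB9 (0.860 to 0.937). SORCS1 over SORCS3 was below 1 in AMB8 (0.670), AMB10 (0.817) and AMB3 (0.828) and ran from 1.31 to 2.40 in the others. SORCS1 over BDNF spanned the widest of the 5 ratios computed, 28.7-fold, from 0.230 in AMB8 to 6.61 in AMB7. Each ratio depends on the lengths of both transcripts, so that only its change between libraries can be read.

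**Figure D3:**
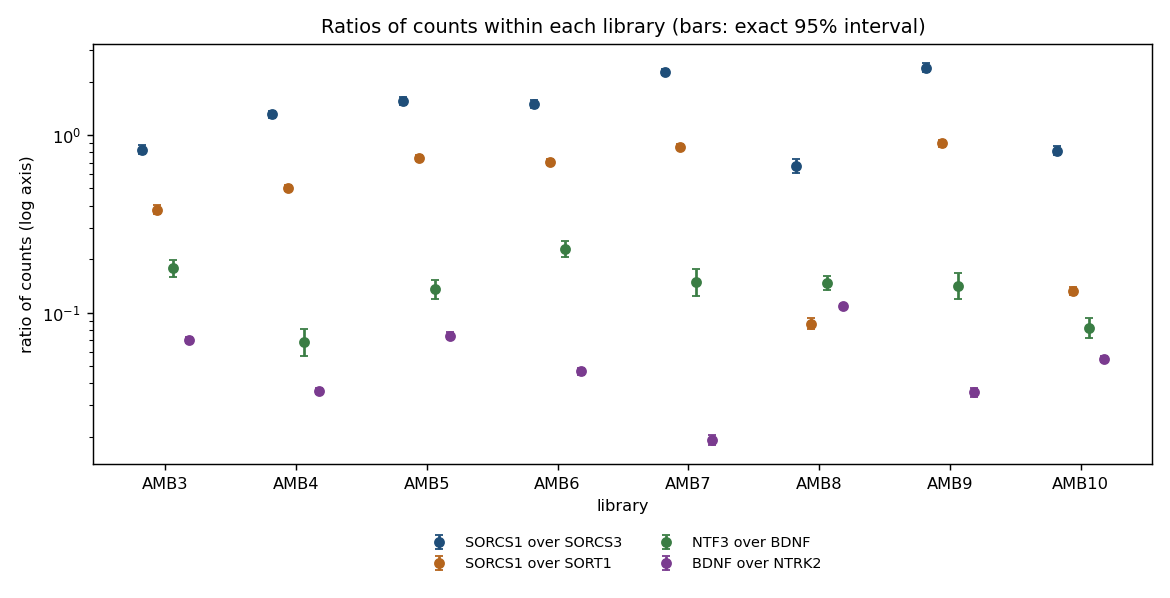
Ratios of counts between pairs of the 8 genes (y axis, log scale) within each library (x axis), with exact 95% intervals. SORCS1 over SORT1 is lowest in AMB8 at 0.0868 and AMB10 at 0.132, and BDNF over NTRK2 is lowest in AMB7 at 0.0191.

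Levels of the 8 genes were related to each other over the 8 libraries, and 28 pairs were computed. Exact 2-sided permutation p-values were adjusted by Benjamini-Hochberg over all 134984 relations of the 8 genes with the tested genes. No pair passed an adjusted p of 0.05 by Pearson's r or by Spearman's rho, and neither did any of the 134984 relations (0% called). The smallest exact permutation p of any Pearson relation was 2.48e-05, the lowest that 8 libraries allow. A single relation at that limit could not pass the adjustment over 134984 relations, however close it was. The adjusted values therefore cannot decide whether a pair is related, and no conclusion is drawn from the lack of calls. Unadjusted, 8 of the 28 pairs had an exact Pearson p of at most 0.05, or 28.6%, and 6 had such a Spearman p. Over all relations the unadjusted shares were 13.7% and 11%. The pair with the smallest Pearson p was NTRK3 and NGFR, with r = 0.88 (exact permutation p = 0.00615, adjusted p = 0.230) and rho = 0.81 (exact permutation p = 0.0218, adjusted p = 0.354). Its r was 0.91 without AMB8 and AMB9, the 2 libraries farthest from the median of NTRK3. In each pair below, the 2 libraries left out are likewise those farthest from the median of the first gene. NTRK3 and SORT1 had r = 0.80 (exact permutation p = 0.0135, adjusted p = 0.268) and rho = 0.93 (exact permutation p = 0.00223, adjusted p = 0.273). Without AMB8 and AMB9 its r was 0.88. NGFR and SORT1 had r = 0.82 (exact permutation p = 0.00928, adjusted p = 0.248), and 0.94 without AMB7 and AMB9. BDNF and NGFR had r = 0.77 (exact permutation p = 0.0184, adjusted p = 0.286), which fell to 0.56 without AMB7 and AMB8. NTRK3 and SORCS1 had r = -0.82 (exact permutation p = 0.00975, adjusted p = 0.249), which weakened to -0.59 without AMB8 and AMB9. NGFR and SORCS1 had r = -0.73 (exact permutation p = 0.0379, adjusted p = 0.340) and rho = -0.88 (exact permutation p = 0.00724, adjusted p = 0.295). Without AMB7 and AMB9 that r was -0.62.

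The ligands and their main receptors were not among the pairs with a small unadjusted p. BDNF and NTRK2 had r = -0.38 (exact permutation p = 0.324, adjusted p = 0.672) and rho = -0.55 (exact permutation p = 0.171, adjusted p = 0.580), and r was -0.61 without AMB7 and AMB8. NTF3 and NTRK3 had r = 0.18 (exact permutation p = 0.654, adjusted p = 0.868) and rho = 0 (exact permutation p = 1, adjusted p = 1), with r = 0.03 after AMB4 and AMB7 were left out. The 2 ligands had r = 0.77 (exact permutation p = 0.0153, adjusted p = 0.275) and rho = 0.71 (exact permutation p = 0.0576, adjusted p = 0.441). Their r was 0.63 without AMB7 and AMB8. SORCS1 and SORCS3 had r = 0.81 (exact permutation p = 0.0243, adjusted p = 0.305) and rho = 0.38 (exact permutation p = 0.360, adjusted p = 0.713). That r became -0.46 without AMB8 and AMB10, so the positive relation rests on those libraries. With each library left out in turn, r kept its sign in 18 of the 28 pairs.

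**Figure D4:**
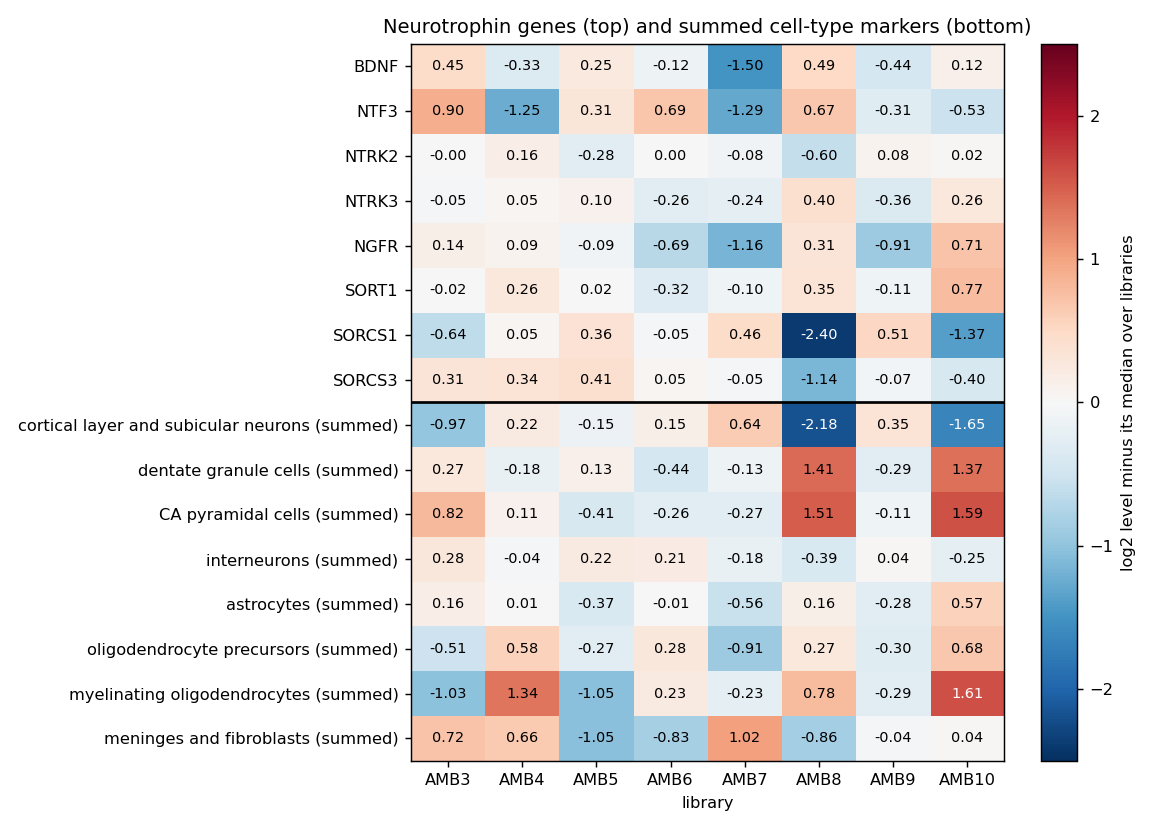
Log2 level minus its median over the 8 libraries (colour and printed value) for the 8 genes above the line and for summed cell-type markers below it, by library (x axis). SORCS1 is at -2.40 in AMB8 and -1.37 in AMB10, where the summed cortical layer and subicular markers are also lowest.

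Genes with the most similar pattern were found by the mean absolute difference in centred log2 CPM over the 8 libraries, among 13006 genes with a symbol and a median count of at least 50. Closest to BDNF were MAOB, a monoamine oxidase, SULF2, a sulfatase of heparan sulfate chains, and ACCS, with differences of 0.16, 0.16 and 0.17 against a median of 0.50 over all candidates. Each was lowest in AMB7, MAOB at 43.3 CPM and SULF2 at 112 CPM. Closest to NTF3 were HES5, a transcriptional repressor, BUD23 and GRM4, a metabotropic glutamate receptor, at 0.33, 0.35 and 0.39 against a median of 0.76. NGFR was closest to GREB1L, TESC and ZNF831 (0.18, 0.20 and 0.20), and SORT1 to TRMT10A, CAP2 and C1GALT1C1L (0.06, 0.08 and 0.08). Among the genes closest to SORCS1 were STBD1 and CXXC4 (0.16 and 0.17 against a median of 0.77), both lowest in AMB8. SORCS3 was closest to FCGR2A, ETS2 and TRIM66 (0.09, 0.14 and 0.15). Several of the genes named had low levels: BUD23 (0.454 to 1.75 CPM), STBD1 (0.434 to 2.65) and TRIM66 (1.21 to 3.07). FCGR2A (1.33 to 3.60 CPM), C1GALT1C1L (1.40 to 3.29) and TRMT10A (1.81 to 3.48) were low as well. The differences carry no interval for counting error. These neighbours depended on single libraries: with 1 library left out, between 0 and 3 of the 3 remained for NTF3 and SORCS1, 0 to 2 for BDNF and NGFR, and 1 to 2 for SORT1 and SORCS3.

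Other sortilin relatives had smaller ranges. SORL1, a sortilin relative that sorts the amyloid precursor protein, lay between 278 CPM in AMB5 and 412 in AMB10. SORCS2, which in mice binds the precursor of BDNF, lay between 54.6 and 66.1 CPM. Neither SORL1 nor SORCS2 had a range of at least 1. NTF4 had no row under its symbol and was not analysed here.

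Of 98 tested genes in 7 lists around the pathway, 35 (35.7%) had a range of at least 1, beside 36.1% of all tested genes, and their median range was 0.68. The share was thus near the background. Genes that process neurotrophin precursors had a median range of 1.13, and 8 of 11 tested had a range of at least 1. PCSK1, a proprotein convertase of secretory granules, had a range of 4.17: its levels were 11.96 CPM for AMB8, 19.1 for AMB10 and 46.1 for AMB3, and at least 165 CPM in every other library. PCSK6, a related convertase, had the same 3 lowest libraries, at 7.46, 7.63 and 11.2 CPM, with 33.4 in AMB7. PCSK2 ran from 147 to 272 CPM. PCSK5 was at 55.3 CPM in AMB3 and 16.7 to 28.0 elsewhere, and its range fell from 1.72 to 0.74 without AMB3. SERPINI1, neuroserpin, an inhibitor of the protease encoded by PLAT, was at 366 CPM in AMB5 and 172 to 219 elsewhere, and its range fell from 1.09 to 0.34 without AMB5.

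Of 28 tested signalling proteins downstream of the Trk receptors, 2 had a range of at least 1, beside 36.1% of all tested genes. Their median range was 0.54. GAB1, a docking protein, ran from 13.6 CPM in AMB5 to 43.0 in AMB10, and PIK3R1, the regulatory subunit of PI3-kinase, between 193 CPM (AMB8) and 442 CPM (AMB7). KIDINS220, a Trk substrate and scaffold, was the most counted of them by its median, at 459 to 645 CPM. Of 12 tested partners of p75, 1 passed a range of 1, beside the same 36.1%. RTN4R, the Nogo receptor, was at 63.4 CPM in AMB6 and 24.6 in AMB3, and its range fell from 1.37 to 0.80 without AMB6. Its co-receptor LINGO1 lay between 339 and 587 CPM, and MAGED1, an intracellular p75 partner, between 285 and 434.

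Of 14 tested regulators of BDNF transcription, 3 had a range of at least 1, beside 36.1% of all tested genes. Their median range was 0.52. MEF2C, an activity-dependent transcription factor, was at 326 CPM or less in AMB3, AMB8 and AMB10 and at 1201 CPM or more in the other libraries. NPAS4, which neuronal activity induces, was at 0.587 CPM in AMB10 and 5.67 in AMB5. The repressor REST lay between 5.37 CPM in AMB5 and 13.9 in AMB10, and its range fell from 1.37 to 0.97 without AMB5. ARNT2, the partner of NPAS4, was lowest in AMB7 at 289 CPM and highest in AMB10 at 445.

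Of 9 genes that sort or carry neurotrophin cargo, 4 had a range of at least 1, beside 36.1% of all tested genes. HAP1, a partner of huntingtin in transport, lay between 1.74 CPM in AMB9 and 10.9 in AMB6. CADPS2, a priming factor of dense-core vesicles, ran from 35.3 CPM in AMB3 to 164 in AMB7, and its range fell from 2.22 to 1.42 without AMB3. SCG2, a granin of these vesicles, had its 2 lowest values, 156 and 162 CPM, in AMB8 and AMB10, and at least 437 CPM in the others. CPE, carboxypeptidase E, was lowest in AMB7 at 843 CPM and reached 1677 CPM or more in AMB3, AMB8 and AMB10. Without AMB7 its range fell from 1.01 to 0.69. KIF1A, a kinesin of axonal transport, lay between 991 and 1465 CPM.

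Genes that activity or neurotrophins induce had the highest median range of the 7 lists, 1.59. Of these 21 genes, 17 were at 1 or above, beside 36.1% of all tested genes. At 2 or above were 7, beside 9% of all tested genes. PTGS2, the inducible cyclooxygenase, had the largest range of them, 5.16, with 10.8 CPM in AMB7 and 0.280 CPM or less in both AMB8 and AMB10. INHBA, a subunit of activin, was at 2.12 CPM in AMB3 and 30.4 in AMB7. EGR2 was at 1.92 CPM in AMB3 and 9.51 to 16.7 elsewhere. Without AMB3 the range of INHBA fell from 3.82 to 2.16 and that of EGR2 from 3.09 to 0.81. FOSB lay between 2.03 CPM in AMB8 and 10.7 in AMB6. In AMB7, the library lowest in BDNF, the genes of this list went both ways. PTGS2, INHBA and EGR2 were highest there (EGR2 at 16.7 CPM beside 16.4 in AMB4), and 4 of the 21, named after their values were seen, were lowest: NR4A3 at 25.4 CPM, DUSP5 at 6.07, DUSP6 at 49.6 and NPTX2 at 31.5. Over all tested genes, AMB7 was the lowest library in 15.1% and the highest in 15.5%. HOMER1 at 128 to 154 CPM and NRN1 at 142 to 219 CPM were the most counted of this list and did not reach a range of 1.

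**Figure D5:**
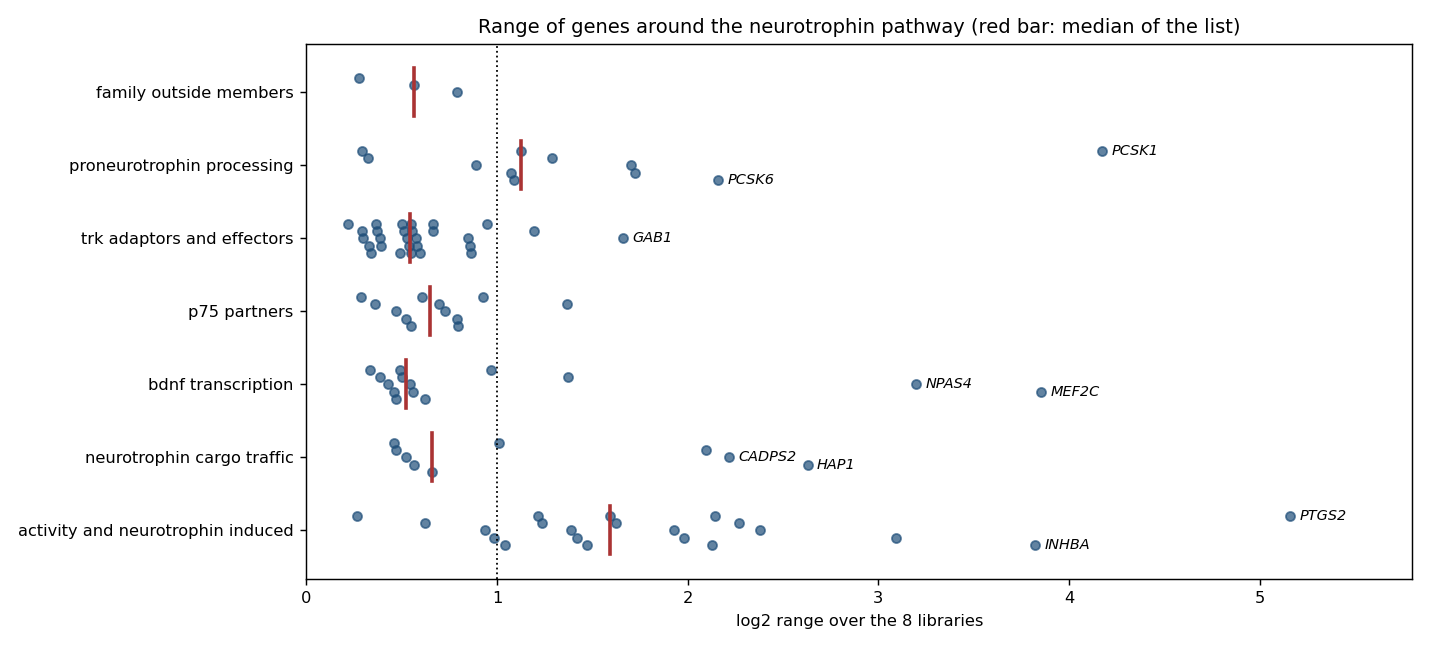
Log2 range over the 8 libraries (x axis) of each tested gene in 7 lists around the neurotrophin pathway (y axis), with the median of each list as a red bar and a dotted line at a range of 1. The median is 1.59 for genes induced by activity or neurotrophins and 0.54 for Trk adaptors and effectors.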

How the data were processed

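A strand-specific kit was used on 25 ng of RNA, per the labels' protocols. The authors deposited a table of RefSeq genes with raw columns, whose fractional values are estimated counts, and normalized columns, which are on a log2 scale. DESeq is named per the submitters' processing notes. No aligner, counter or build is named there, and the strand setting of the counting is not given in the sources used here. All 37053 gene identifiers matched RefSeq's Panubis1.0 table, and the coordinates of the 8 genes were equal there.

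Estimated counts were rounded. edgeR 4.0.16 (R 4.3.3) filtered genes (filterByExpr, minimum count 10, no groups) and scaled libraries; log2 CPM had a prior count of 2. Intervals, ratios and permutations used scipy 1.17.1. The correlation code was first run on simulated data with planted genes that followed BDNF, adjusted over the relations of BDNF alone. That run does not show what the adjustment over all 134984 relations can detect. DESeq2 1.42.0 size factors, total counts, a prior count of 0.5, no filter, the deposited log2 values and leaving out each library were alternatives.

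The genes, lists and tests were chosen with earlier results of these data known. Named are the 8 genes, the 2 most counted and up to 4 widest-ranging genes (range at least 1) of each pathway list, and the 3 genes closest in pattern. Some genes this rule names are not reported here. P-values are for correlations over these libraries only. They treat the libraries as independent, which the labels do not establish. Differences between the libraries may be technical. No sequences are shown.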

Additional observations from a re-analysis of the deposited data

Results flagged for a closer look

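Of 38 named genes (the 8 genes and 30 pathway genes), 5 had a library whose log2 CPM lay far from the others: its gap to the nearest library, over the whole range, exceeded Dixon's 95% critical value for 8 values. Each gene was tested in both directions, 76 tests in all. Chance flags about 1 in 20 sets, and 5.08% of all tested genes had such a library. Many pathway genes were named for a wide range, which 1 far library can produce. The count of 5 is therefore not comparable with those shares. BDNF was at 14.6 CPM in AMB7, with 30.4 CPM the nearest (gap over range 0.532, close to the limit). PCSK5 was at 55.3 CPM in AMB3, with 28.0 the nearest. SERPINI1 was at 366 CPM in AMB5, with 219 the nearest. KIF1A was at 991 CPM in AMB8, with 1236 the nearest. EGR2 was at 1.92 CPM in AMB3, with 9.51 the nearest.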

How the results depend on the processing

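Under DESeq2 size factors, total counts, a prior count of 0.5, no filter and the deposited log2 values, the ranges of the 8 genes moved little (BDNF 1.97 to 1.99, SORCS1 2.87 to 2.93, SORCS3 1.48 to 1.58), 6 of 8 stayed at 1 or above and no pair passed. The limit that 8 libraries set on a permutation p holds for the pairs under these alternatives too. None of 150 values for the named pathway genes moved by more than 1 SD under the same alternatives. With 1 library left out, 11 of 240 did. With 1 library left out, ranges lay between 0.93 and 1.99 for BDNF, 1.98 and 2.19 for NTF3, 0.44 and 0.76 for NTRK2, 0.62 and 0.76 for NTRK3, 1.47 and 1.87 for NGFR, 0.67 and 1.10 for SORT1, 1.88 and 2.91 for SORCS1, and 0.80 and 1.55 for SORCS3, and 5 to 6 genes were at 1 or above. Leaving out AMB8 and AMB10, chosen after seeing the data, gave 0.44 for NTRK2, 0.46 for NTRK3, 0.58 for SORT1, 1.15 for SORCS1 and 0.48 for SORCS3; without AMB3 too, SORCS1 was at 0.56, the other 4 ranges were the same, and 3 genes were at 1 or above. Leaving out libraries can only narrow a range, whereas the other alternatives could also widen it. No paired analysis was possible because the labels give no groups. Low counts limit NGFR (99 in AMB9) and NTF3 (143 in AMB4).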
